A study of Mus musculus with 4 samples.

Results

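The 7 periportal genes described here are Cdh1, Pigr, Ctsc, Cyp2f2, Hsd17b13, Etnppl and Gls2. They were chosen by symbol, matched to the Entrez gene numbers of the deposited tables, and are 7 of 17543 genes in those tables. The choice was made with earlier results of these data known, so counts set beside all genes only describe the lists. All 7 passed the filter on low counts, so none is missing from the tests below. Blood enters the liver lobule at the portal vein and leaves at the central vein, and hepatocytes along that path carry different sets of enzymes. The periportal end is known for glutamine breakdown, ureagenesis and gluconeogenesis, and the pericentral end, under WNT and beta-catenin signals, for glutamine synthesis and drug metabolism. The genes here are known for higher levels near the portal vein, but bulk liver RNA does not record position, so the zone itself was not measured.

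Transcripts were measured by RNA sequencing in livers of C57BL/6 mice. One genotype, called K307R below, carried the K307R change on both copies of Ezh2, whose protein is the histone H3 methyltransferase of the Polycomb repressor PRC2. The other was wild type (WT), and each genotype had 2 livers. The labels give no sex, age, feeding state, hour of collection or founder line, and do not say that replicates came from separate animals, so the p values reflect only how far these samples spread, which may be technical.

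The depth, as the sum of expected counts, was 18602928 and 18749610 in the K307R livers, against 19289715 and 20044832 in the WT livers. The hepatocyte markers were present in every liver, with Alb alone at 98489 and 102760 CPM (counts scaled to library size) in K307R livers, against 101890 and 105310 CPM in WT livers. Other differences ran exactly with genotype. Xist, which female cells make from their inactive X, was at 327 and 573 CPM in K307R livers, against 0.347 and 0.284 CPM in WT livers. The Y-linked genes Ddx3y, Eif2s3y, Kdm5d and Uty were all lower in K307R livers and passed the edgeR test given below. The log2 fold changes of these 5 sex-chromosome genes ran from -13.17 to 10.46. The clock activator gene Arntl was at 12.3 and 23.7 CPM in K307R livers, against 1.10 and 1.18 CPM in WT livers. In every comparison below, genotype cannot be told apart from sex, which these sex-chromosome genes mark, or from the clock differences.

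Of the 7 periportal genes, 2 rose and 1 fell in K307R livers. The test was edgeR's quasi-likelihood F test, called where the adjusted p (Benjamini and Hochberg, over 12837 genes) was under 0.05. Ctsc and Pigr rose, Cdh1 fell, and Cyp2f2, Hsd17b13, Etnppl and Gls2 did not pass. Over all genes tested, 2.86% were called, 1.39% as higher and 1.47% as lower in K307R (178 and 189 genes, against 188 and 124 with total-count scaling). The median log2 fold change was -0.01 over the 7 genes and 0.01 over all genes tested, and 3 of the 7 values were positive. In 4 of the 7 genes the livers of the genotypes did not overlap, which is close to the 48.6% of all tested genes for which that held. In bulk liver, fewer cells of a type and less RNA per cell cannot be told apart.

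**Figure D1:**
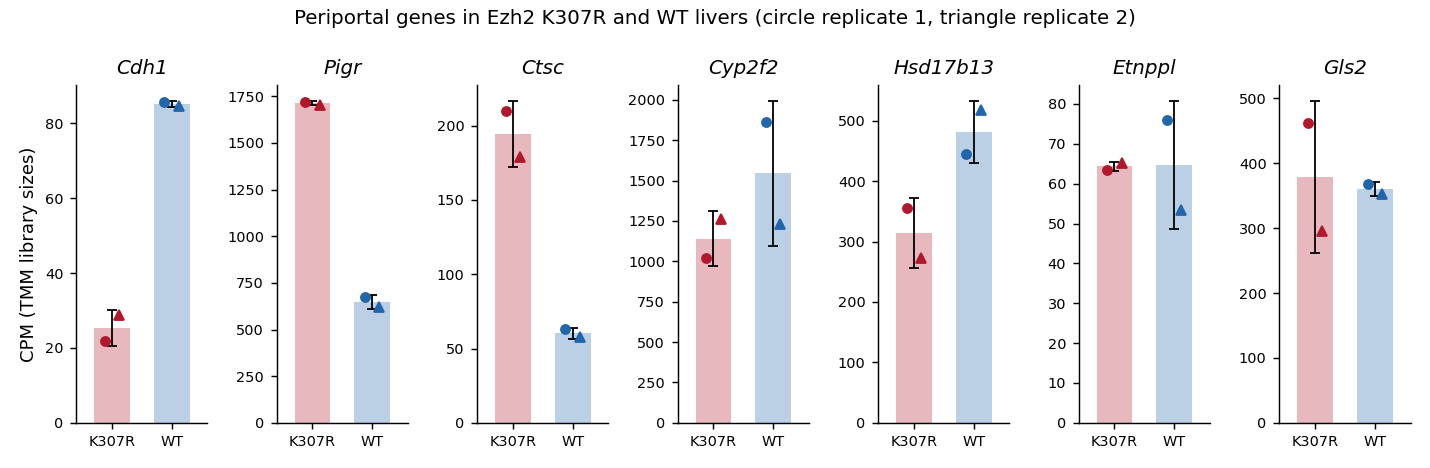
CPM of the 7 periportal genes, each panel on its own axis from 0, with bars for the mean of 2 livers, lines for the SD and points for single livers. K307R livers sit apart from WT livers in Cdh1 (mean 25.4 against 85.1 CPM), Pigr (1713 against 649 CPM) and Ctsc (195 against 60.3 CPM), and the points of the genotypes overlap in Cyp2f2, Etnppl and Gls2.

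The levels of the 7 genes, compared per transcript length as FPKM (fragments per kilobase of transcript, scaled to depth), spanned more than 10-fold in both genotypes. In K307R livers the order was Cyp2f2 at 638 ± 107 FPKM, Pigr at 453 ± 6.41, Hsd17b13 at 253 ± 41.6, Gls2 at 157 ± 45.4, Ctsc at 29.1 ± 3.32, Etnppl at 24.3 ± 0.912 and Cdh1 at 5.80 ± 1.22 (mean ± SD, n = 2). In WT livers it was Cyp2f2 at 803 ± 142 FPKM, Hsd17b13 at 370.3 ± 81.4, Pigr at 162 ± 9.10, Gls2 at 142 ± 12.1, Etnppl at 22.9 ± 3.01, Cdh1 at 18.4 ± 1.95 and Ctsc at 8.52 ± 0.417 (n = 2). The livers of neighbouring genes in either order did not overlap, but 2 livers a genotype cannot show that neighbours such as Pigr and Gls2 in WT differ, and no test was run. Ctsc stood above Etnppl and Cdh1 in K307R livers and below both in WT livers, and Pigr stood above Hsd17b13 in K307R livers and below it in WT livers.

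Cdh1 encodes E-cadherin, the calcium-dependent adhesion protein of epithelial adherens junctions, which in mouse liver is known to mark periportal hepatocytes and bile duct cells. The gene (Entrez gene 12550) lies on chromosome 8 from 106603350 to 106670247 in mm10 and had 1 transcript in the tables. Its level was 22.0 and 28.7 CPM in K307R livers, against 85.7 and 84.5 CPM in WT livers. Both K307R livers were below both WT livers, and the WT livers were nearly equal. The means were 25.4 ± 4.80 CPM in K307R and 85.1 ± 0.814 CPM in WT (SD, n = 2 each), a 3.36-fold lower level. On the log2 scale the difference was -1.75 (SE 0.207, 95% interval -2.23 to -1.27, edgeR adjusted p = 0.00712). Leaving out any single liver kept the call, with log2 fold changes from -1.95 to -1.56.

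Around Cdh1, no other junction gene passed the test. Of 19 tested junction genes, Cdh1 included, 0 rose and 1 fell, where 2.86% of all genes tested were called. At that rate a list this short often holds no call, so the count does not show that the change was particular to Cdh1. The median log2 fold change was 0.29 against 0.01 over all genes. Cdh2, the N-cadherin that hepatocytes also carry, was at 95.4 and 120.3 CPM in K307R livers, against 92.1 and 83.8 CPM in WT livers (log2 fold change 0.29, edgeR adjusted p = 0.525). The catenin genes, whose proteins tie cadherins to actin, had log2 fold changes of -0.29 for Ctnna1, -0.03 for Ctnnb1 and 0.25 for Ctnnd1, none past the threshold. Jup, the desmosomal relative of beta-catenin, and Pcdh1, a protocadherin, had log2 fold changes of 0.58 and 0.75 (edgeR adjusted p = 0.158 and 0.105).

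Pigr encodes the polymeric immunoglobulin receptor, which carries dimeric IgA across epithelial cells and into bile. The gene (Entrez gene 18703) lies on chromosome 1 from 130826684 to 130852249 in mm10 and had 1 transcript in the tables. Its level was 1721 and 1705 CPM in K307R livers, against 676.5 and 622 CPM in WT livers. The K307R livers were nearly equal, and both lay above both WT livers. The means were 1713 ± 11.7 CPM in K307R and 649 ± 38.5 CPM in WT (SD, n = 2 each), a 2.64-fold higher level. Its log2 fold change came to 1.4 (SE 0.245, 95% interval 0.83 to 1.97, edgeR adjusted p = 0.0303). The call was lost without K307R replicate 1 (edgeR adjusted p = 0.0790) or replicate 2 (0.0859), with log2 fold changes of 1.39 and 1.41.

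Around Pigr, no other gene of its transport route or of the signals known to induce it passed the test. Of 16 tested genes, Pigr included, 1 rose and 0 fell, with a median log2 fold change of 0.16. With 2.86% of all genes tested called, a lack of other calls in so short a list does not show that the rise was particular to Pigr. Jchain, which joins IgA monomers and is made by plasma cells, was at 9.81 and 1.43 CPM in K307R livers, against 1.10 and 1.56 CPM in WT livers. A single K307R liver was thus high in Jchain, while both were high in Pigr. Irf1, an interferon-induced activator, differed by 0.74 on the log2 scale (edgeR adjusted p = 0.119), and Nfkb1 and Rela, NF-kappaB subunits, had values of 0.26 and 0.23 (adjusted p = 0.55 and 0.628).

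Ctsc encodes cathepsin C, the lysosomal dipeptidyl peptidase that activates the granule serine proteases of leukocytes. The gene (Entrez gene 13032) lies on chromosome 7 from 88278024 to 88315861 in mm10. Its level was 210.1 and 179 CPM in K307R livers, against 63.0 and 57.5 CPM in WT livers. Both K307R livers were above both WT livers. The means were 195 ± 22.0 CPM in K307R and 60.3 ± 3.89 CPM in WT (SD, n = 2 each), a 3.23-fold higher level. This was 1.69 on the log2 scale (SE 0.206, 95% interval 1.21 to 2.17, edgeR adjusted p = 0.00797), and it stayed past the threshold without any single liver, at 1.57 to 1.80. Of its transcripts, the 7466-base form was at 24.1 and 22.1 FPKM in K307R livers against 6.54 and 7.04 FPKM in WT livers, and the 4031-base form was at 7.36 and 4.64 FPKM in K307R livers against 1.68 and 1.77 FPKM in WT livers.

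Among the cathepsins only Ctsc passed the test. With 2.86% of all genes tested called, few cathepsins would be called in any case, so this does not show that the rise was particular to Ctsc. Of 17 tested cathepsins, inhibitors and target proteases, 1 rose, which was Ctsc, and 1 fell, with a median log2 fold change of 0.19. The lysosomal proteases Ctsb, Ctsd and Ctsl had log2 fold changes of 0.38, -0.27 and -0.33 (edgeR adjusted p = 0.500, 0.628 and 0.596), and Ctss, typical of antigen-presenting cells, one of 0.32 (0.533). The gene that fell was Prtn3, a neutrophil protease that cathepsin C activates, at 0.477 and 0.358 CPM in K307R livers, against 2.43 and 2.27 CPM in WT livers, a call lost without K307R replicate 1 (edgeR adjusted p = 0.129) or 2 (0.195). The granzyme genes Gzma and Gzmb were below 1.5 CPM in every liver.

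The upstream sequences of the 2 genes that rose are given because their levels moved the same way. They are the 250 bases before the start used in RefSeq's promoter table (GRCm38.p6), 5′ to 3′ on the coding strand, which is the plus strand for both. Capitals mark matches to the motifs searched. The Pigr window is chr1:130826434-130826683 and that of Ctsc is chr7:88277835-88278084, before a start inside the gene's outermost bound given above.
Pigr: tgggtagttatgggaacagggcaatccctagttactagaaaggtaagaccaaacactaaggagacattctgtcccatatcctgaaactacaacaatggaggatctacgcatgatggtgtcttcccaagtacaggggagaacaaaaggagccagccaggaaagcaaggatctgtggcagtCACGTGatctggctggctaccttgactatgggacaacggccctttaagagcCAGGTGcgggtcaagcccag
Ctsc: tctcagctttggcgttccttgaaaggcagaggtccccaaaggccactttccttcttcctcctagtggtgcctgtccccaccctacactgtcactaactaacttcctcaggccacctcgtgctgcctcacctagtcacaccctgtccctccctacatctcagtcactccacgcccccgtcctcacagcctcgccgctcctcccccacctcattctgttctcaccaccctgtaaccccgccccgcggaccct

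In the Pigr window the E-box CACGTG, known for binding clock and USF factors, began 71 bases before the start, and CAGGTG, the E-box of SNAIL and ZEB factors, 20 bases before it. CACGTG was in 6.02% and CAGGTG, or CACCTG on the other strand, in 17.2% of 32851 RefSeq windows of that length. The other motifs searched on both strands, which did not overlap these, were the NF-kappaB motif, taken as GGG and TTTCC with any 2 bases between (1.41% of windows), the interferon response motif, taken as TTTC and TTTC with any 2 bases between (2.98%), CCAAT (33.8%) and TGACGTCA of CREB (1.55%). None of the 6 motifs was in the Ctsc window. RefSeq's table gave windows for 5 of the 7 genes, and among the other 3, Cyp2f2 and Hsd17b13 held none of the motifs and Etnppl held CAGGTG before 1 of its 2 starts.

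**Figure D2:**
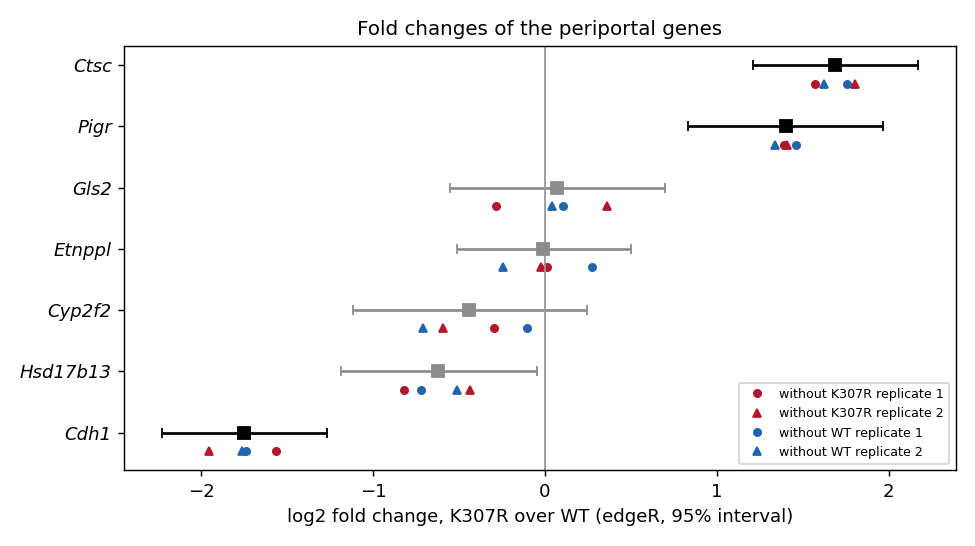
Log2 fold change of K307R over WT for each gene (squares, black where past the threshold) with its 95% interval from edgeR, and below each square the value without each liver in turn (red K307R, blue WT, circle replicate 1, triangle replicate 2). Ctsc, Pigr, Cdh1, Hsd17b13 (-0.82 to -0.44) and Cyp2f2 (-0.71 to -0.11) keep their sign whichever liver is left out. Gls2 and Etnppl have values on both sides of 0.

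The remaining 4 genes encode enzymes of hepatocyte metabolism, and none of them passed the test. Cyp2f2, a cytochrome P450 known for oxidizing naphthalene and widely used as a periportal marker, lies on chromosome 7 from 27119955 to 27133660. It was at 1023 and 1259 CPM in K307R livers, against 1861 and 1228 CPM in WT livers, so the genotypes overlapped. Its log2 fold change was -0.44 (SE 0.294, 95% interval -1.12 to 0.24, edgeR adjusted p = 0.516). Its value was -0.11 without WT replicate 1 and -0.71 without WT replicate 2.

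Cyp2f2 sits near one end of a cluster of related P450 genes, whose other listed members lie between 20.1 kb and 1303 kb away. Of 11 tested cluster genes, Cyp2f2 included, 6 rose and 0 fell, and the median log2 fold change was 1.86. That is 54.5% called, against 2.86% of all genes tested. Cyp2a22, which lies 180.5 kb from Cyp2f2, was at 92.8 and 85.8 CPM in K307R livers, against 19 and 30.1 CPM in WT livers (SE of its log2 fold change of 1.86 was 0.251, edgeR adjusted p = 0.0118). Cyp2a12, which is nearer at 83.1 kb, was at 859 and 831 CPM in K307R livers, against 847 and 664 CPM in WT livers (edgeR adjusted p = 0.806). The other rises were Cyp2b9, Cyp2b10, Cyp2b13, Cyp2b23 and Cyp2g1, and without K307R replicate 1 the number that rose was 4. Cyp2b23 was near the floor, at 0.902 and 1.23 CPM in K307R livers, against 0 and 0 CPM in WT livers. Several Cyp2b genes are known to be female-biased in mouse liver, and how reads were split among close Cyp2a and Cyp2b copies is uncertain.

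Hsd17b13 encodes a lipid droplet protein with retinol dehydrogenase activity, and lies on chromosome 5 from 103955442 to 103977388. It was at 355 and 273 CPM in K307R livers, against 445 and 517 CPM in WT livers. Both K307R livers were below both WT livers, with means of 314 ± 58.15 CPM in K307R and 481 ± 50.95 CPM in WT (SD, n = 2 each). Its log2 fold change was -0.62 (SE 0.246, 95% interval -1.19 to -0.05), with an unadjusted p of 0.0373 and an edgeR adjusted p of 0.259. Unadjusted, 16.8% of all genes had a p under 0.05, and 2.86% were called after adjustment. Of 20 tested lipid droplet genes, Hsd17b13 included, 0 rose and 0 fell by edgeR, with a median of -0.20, while 4 had an unadjusted p under 0.05 and DESeq2 called 1 in each direction. There were 2 rises and 1 fall without K307R replicate 1, 0 rises and 1 fall without WT replicate 1, and 1 of each without WT replicate 2. Hsd17b11, its closest relative in the list, differed by 0.13 on the log2 scale (edgeR adjusted p = 0.835), and the droplet coat gene Plin2 was at 219.96 and 586 CPM in K307R livers, against 234 and 204 CPM in WT livers.

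Etnppl encodes the lyase that breaks down phosphoethanolamine, and lies on chromosome 3 from 130617448 to 130635750. It was at 63.6 and 65.2 CPM in K307R livers, against 76.0 and 53.3 CPM in WT livers, the K307R livers lying between the WT livers. Its log2 fold change was -0.01 (SE 0.218, 95% interval -0.51 to 0.50, edgeR adjusted p = 0.993), and its sign changed with the scaling (0.09 with total counts). Its shorter transcript of 2666 bases took 12.1% and 0% of the gene's counts in K307R livers, against 0.0365% and 31.4% in WT livers, so the split between its transcripts varied widely within each genotype. Of 17 tested genes of ethanolamine and choline phospholipids, Etnppl included, 1 rose and 0 fell, with a median of 0.02, and 3 rose without WT replicate 1 (Chka, Selenoi and Chpt1). With all livers, 5.88% of this list was called, against 2.86% of all genes tested. The gene that rose was Chka, the choline kinase gene, at 29.1 and 44.1 CPM in K307R livers, against 11 and 10.65 CPM in WT livers (log2 fold change 1.76, SE 0.246, edgeR adjusted p = 0.0141).

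Gls2 encodes the liver-type glutaminase, which releases ammonia from glutamine for the urea cycle, and lies on chromosome 10 from 128194635 to 128210004. It was at 461 and 296 CPM in K307R livers, against 367 and 352 CPM in WT livers, the WT livers lying between the K307R livers. Its log2 fold change was 0.07 (SE 0.271, 95% interval -0.55 to 0.70, edgeR adjusted p = 0.926). Without K307R replicate 1 it was -0.28, and without K307R replicate 2 it was 0.36. Its minor transcript of 2489 bases was at 4.31 and 5.01 FPKM in K307R livers, against 1.06 and 1.14 FPKM in WT livers, or 2.31% and 4.06% of the gene's counts in K307R livers against 0.807% and 0.770% in WT livers. Tested among 16849 single transcripts, a test chosen after seeing the data, that transcript had a log2 fold change of 2.01 (SE 0.275) and an unadjusted p of 0.00233, but an edgeR adjusted p of 0.251. In that test 0 of the 16849 transcripts passed (0.0% called), and 1812 had an unadjusted p under 0.05.

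Of 20 tested genes of glutamine and glutamate metabolism, Gls2 included, 0 rose and 1 fell, with a median log2 fold change of -0.06. That is 5.0% called, against 2.86% of all genes tested. Glud1, which makes ammonia from glutamate, differed by 0.63 (edgeR adjusted p = 0.265) and the glutamine carrier Slc38a2 by -0.91 (0.0764) on the log2 scale. Asns, the asparagine synthetase that uses glutamine, fell to 0.265 and 0.102 CPM in K307R livers, against 2.08 and 8.76 CPM in WT livers. Its log2 fold change was -4.85 (SE 0.850, edgeR adjusted p = 0.0303), a call lost without K307R replicate 1 (0.0509) or 2 (0.0903), with values of -5.65 without K307R replicate 1, -5.54 without WT replicate 1 and -3.47 without WT replicate 2. In the list, 2 genes fell without WT replicate 1. Gls2 and Etnppl are both known to rise in fasting mouse liver. Of 20 tested fasting and glucagon genes, which include both, 2 rose (Irs2 and Pdk4, log2 fold changes of 3.13 and 3.06) and 0 fell, with a median of -0.01, though 1 or 2 fell without K307R replicate 2, WT replicate 1 or WT replicate 2. Without K307R replicate 2 the values were 2.37 for Irs2 and 2.21 for Pdk4, and without WT replicate 1 that of Irs2 was 3.82, all still past the threshold. The gluconeogenic gene Pck1 was at 1891 and 2515 CPM in K307R livers, against 2465 and 2516 CPM in WT livers.

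Of 20 other tested genes known for high periportal levels, 1 rose (5.0%) and 0 fell, against 2.86% called over all genes. Their log2 fold changes ran from -0.87 to 1.33 with a median of -0.11. Of the 20, 5 had an unadjusted p under 0.05, where 16.8% of all genes tested did. The urea cycle gene Cps1 was at 3212 and 2406 CPM in K307R livers, against 3748 and 2899 CPM in WT livers (log2 fold change -0.24, edgeR adjusted p = 0.738), and Ass1 and Arg1 had values of -0.07 and -0.31. Hsd17b6, a retinol and androgen dehydrogenase, rose, at 229 and 189 CPM in K307R livers, against 76.0 and 90.0 CPM in WT livers (log2 fold change 1.33, SE 0.219, edgeR adjusted p = 0.0249). That call was lost without K307R replicate 1 (edgeR adjusted p = 0.0502), and 2 genes of the list rose without WT replicate 1 or without WT replicate 2. Agxt, the alanine-glyoxylate aminotransferase, differed by 1.09 (edgeR adjusted p = 0.0639) and Hal, the histidine ammonia-lyase, by 0.79 (0.145) on the log2 scale.

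Of 35 tested genes of the opposite, pericentral end, 5 rose (14.3%) and 0 fell, against 2.86% called over all genes tested. Of the 35, 29 had a positive log2 fold change, with a median of 0.58. Over all 12837 genes tested, 6558 were positive, with a median of 0.01. Tbx3, a transcription factor of pericentral hepatocytes, was at 23.2 and 42.3 CPM in K307R livers, against 9.78 and 6.67 CPM in WT livers (log2 fold change 2.0, SE 0.33, edgeR adjusted p = 0.0255). Cyp2c37, an arachidonic acid epoxygenase, was at 1246 and 1041 CPM in K307R livers, against 254 and 151 CPM in WT livers (log2 fold change 2.50, SE 0.321, edgeR adjusted p = 0.0105). The other rises were Oat, Axin2 and Nr1i3, with log2 fold changes of 2.11, 2.41 and 1.20.

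Glul, the glutamine synthetase and counterpart of Gls2 at the central vein, was at 769.9 and 1324 CPM in K307R livers, against 952 and 447 CPM in WT livers (log2 fold change 0.58, edgeR adjusted p = 0.537). The number of pericentral rises was 2 without K307R replicate 2, where Oat (edgeR adjusted p = 0.0877), Axin2 (0.148) and Nr1i3 (0.121) lost their calls, and 11 without WT replicate 1, where 1 gene, Gstm3, fell. The median was 0.38 without K307R replicate 2 and 0.89 without WT replicate 1, and Axin2 was at 1.70 without K307R replicate 2. Without WT replicate 2, Nr1i3 also lost its call (0.0626). Whether the median of the pericentral list differed from that of the periportal genes was not tested. Over all genes tested, 2.86% were called and 16.8% had an unadjusted p under 0.05. Of 15 tested zonation regulators, among them Hnf4a (log2 fold change 0.29), Gcgr (0.01) and Ctnnb1 (-0.03), 0 rose and 0 fell by edgeR, with a median of 0.11, while 3 had an unadjusted p under 0.05, DESeq2 called 1, and edgeR called 1 without K307R replicate 1.

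**Figure D3:**
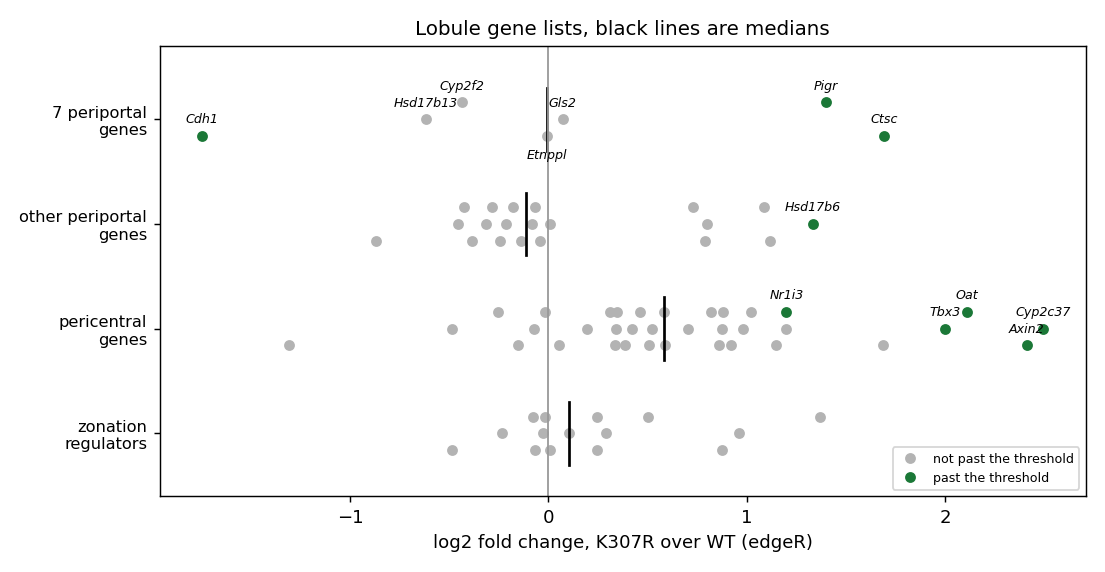
Log2 fold change of K307R over WT for the tested genes of 4 lobule lists (points, green where past the threshold, black lines at medians). The medians are -0.01 for the 7 periportal genes, -0.11 for other periportal genes, 0.58 for pericentral genes and 0.11 for zonation regulators.

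Cdh1, Pigr and Ctsc are also known in cells other than hepatocytes, so markers of those cells are given beside them. For the counts that follow, 2.86% of all genes tested were called by edgeR and 16.8% had an unadjusted p under 0.05. The 11 bile duct markers in the tables, 9 of them tested, summed to 52.0 and 88.7 CPM in K307R livers, against 93.4 and 73.7 CPM in WT livers. The ranges overlapped, 0 of the 9 rose and 0 fell by edgeR, 1 had an unadjusted p under 0.05 and DESeq2 called 0, and Epcam and Krt19 were under 3 CPM in every liver. The 17 leukocyte markers, 16 of them tested, summed to 131.5 and 70.3 CPM in K307R livers, against 57.8 and 63.7 CPM in WT livers, with 0 called by edgeR, 3 at an unadjusted p under 0.05, 1 called by DESeq2, 2 called by edgeR without K307R replicate 2, and Ptprc at 9.02 and 5.98 CPM in K307R livers, against 5.44 and 6.96 CPM in WT livers. The 10 Kupffer cell markers summed to 462 and 311 CPM in K307R livers, against 259.9 and 301 CPM in WT livers, with 0 called by edgeR, 4 at an unadjusted p under 0.05, 1 called by DESeq2, 1 called by edgeR without K307R replicate 2 or without WT replicate 2, and Vsig4 nearest to the threshold (log2 fold change 1.24, edgeR adjusted p = 0.0550). K307R livers were above WT livers in both the leukocyte and the Kupffer sums, K307R replicate 1 more so than replicate 2, and the part of these cells in the rises of Ctsc and Pigr was not tested.

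Markers of other cells moved with genotype as well. Over all genes tested, 16.8% had an unadjusted p under 0.05 and 2.86% were called, the shares for the counts in this paragraph. Of 10 stellate cell markers, 8 had an unadjusted p under 0.05 and 2 passed the edgeR test. Dcn, which encodes the matrix proteoglycan decorin, was at 183 and 135 CPM in K307R livers, against 52.4 and 71.6 CPM in WT livers (log2 fold change 1.36, edgeR adjusted p = 0.0347, lost without K307R replicate 1 at 0.0747). Col1a1, a collagen gene, was at 7.06 and 4.81 CPM in K307R livers, against 17.5 and 48.6 CPM in WT livers (log2 fold change -2.48, edgeR adjusted p = 0.0365, lost without K307R replicate 2 at 0.105, and -1.57 without WT replicate 2). The stellate list thus held 1 rise and 1 fall, with 2 rises and 3 falls without WT replicate 1, 3 rises and 2 falls without WT replicate 2, and 2 falls without K307R replicate 1. All 5 tested red cell markers had an unadjusted p under 0.05. Their 4 globin genes had positive log2 fold changes of 0.73 to 0.95 and did not pass, though 3 did without WT replicate 2. Alas2, the heme synthesis enzyme of red cell precursors, fell, at 16.8 and 27.6 CPM in K307R livers, against 108 and 62.3 CPM in WT livers (log2 fold change -1.94, edgeR adjusted p = 0.0277, lost without K307R replicate 1 at 0.0598). Of 9 sinusoidal endothelial markers 0 were called by edgeR or DESeq2, 3 had an unadjusted p under 0.05, and 1 fell by edgeR without WT replicate 1. The part of these cells in the results for Cdh1, Pigr and Ctsc was not tested.

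The genes whose levels over the 4 livers were most like those of each periportal gene were found among 11403 others with a mean of at least 1 CPM and no Gm or Rik name, by the Euclidean distance between log2 CPM centred on each gene's mean. For Cdh1 they were Enpp2 at a distance of 0.178, B3galt1 at 0.201 and Jaml at 0.260, all of which fell (log2 fold changes of -1.90, -1.61 and -2.13). For Pigr they were Fzd7 at 0.134, Fzd8 at 0.169 and Fmnl2 at 0.170, all of which rose (1.3, 1.5 and 1.26). For Ctsc they were Zap70 at 0.028, Mustn1 at 0.130, both of which rose (1.70 and 1.75), and Zc4h2 at 0.154, which did not pass (2.0, edgeR adjusted p = 0.0653). Those nearest to the 4 metabolic genes, such as Rprd1a for Cyp2f2, Dck for Hsd17b13, Reps2 for Etnppl and Rhoq for Gls2, did not pass either, and with 4 livers such likeness is a description of these samples. Similar fold changes follow from choosing genes by this distance and are no separate result.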

How the data were processed

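The members and gene lists were chosen with earlier results of these data known. Livers were flash frozen, RNA was taken up in TRIzol and libraries were made by BGI, per the labels' protocols. Per the submitters' processing notes, HISAT, Bowtie2 and RSEM were used with mm10. For tool versions, strand setting and read length, nothing is given in the sources used here. The deposited tables list RefSeq transcripts with expected counts, the estimated counts RSEM assigns, which were not normalized, per the file headers. The deposited FPKM are fragments per kilobase of transcript, scaled to depth, per the file headers.

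Expected counts were summed per Entrez gene and rounded to whole numbers. Names and coordinates came from RefSeq's GRCm38.p6, the assembly of mm10, and all list symbols matched. edgeR 4.0.16 (R 4.3.3) with TMM, filterByExpr and genotype as the only term tested 12837 genes on 2 residual degrees of freedom, with Benjamini-Hochberg adjustment over all of them. Each SE is the log2 fold change over the root of its F, CPM use TMM library sizes, and FPKM are summed over a gene's transcripts. Replicates were distinct libraries (chi-square per gene 48.3 in K307R and 88.5 in WT). Deviations from the genotype means correlated at -0.0027 within replicate numbers, so no shared shift by replicate number was seen across genes. With 2 livers a genotype this cannot show whether the livers were paired. The naming rule took the 7 genes, from each list the 4 tested genes of smallest p and up to 8 called ones, and the 3 nearest profiles of each of the 7 genes. The text gives a selection of these, and it names further list members chosen after their values were seen. Results were recomputed with RLE, upper-quartile or total-count scaling, DESeq2 1.42.0, limma 3.58.1 (voom, and trend on log2(FPKM + 1) and log2(FPKM + 0.1)), other filters, the replicate number as a block, each liver left out, no X and Y genes, and a gene's transcript with the most counts alone. The scripts were tested on simulated counts with known changes.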

Additional observations from a re-analysis of the deposited data

How the results depend on the processing

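Cdh1 and Ctsc kept their direction and call under 15 of 16 other settings and Pigr under 13 of 16, and Cyp2f2 and Hsd17b13 kept their direction without a call under all 16. Of the 7 genes, 3 were called with the replicate number as a block and 0 with the transcript of most counts alone (adjusted p = 0.0952 for Cdh1, 0.0758 for Ctsc and 0.115 for Pigr), where 11 genes in all were called, 7 higher and 4 lower. Cdh1 and Pigr had 1 transcript each, so their own counts did not change there, and their log2 fold changes were -1.74 and 1.41. Their lost calls thus do not reflect a choice among their own transcripts. The sign of Etnppl turned with upper-quartile (0.036) or total-count scaling (0.0907), limma-voom (0.015), FPKM with either pseudocount (0.0913 and 0.095), the filter at 1 CPM (0.0015), the block (0.016) and the transcript of most counts (0.12), and across livers left out it ran from -0.24 to 0.27, as that of Gls2 ran from -0.28 to 0.36. Over all genes the 367 calls (178 higher, 189 lower) were 738 with DESeq2 (368 and 370), 163 on log2(FPKM + 1) (94 and 69), 161 on log2(FPKM + 0.1) (91 and 70), 829 with no filter (410 and 419), 347 with the replicate block, and 124 lower with total-count scaling. With a liver left out they ran from 211 to 720, the higher from 117 to 327 and the lower from 94 to 393. The cause of these shifts was not tested. The pericentral list had 5 rises, against 10 with DESeq2, 3 with limma-voom, 2 with the block and 1 on FPKM. With 2 livers a genotype the intervals are wide: that of Cyp2f2 runs from -1.12 to 0.24 and that of Gls2 from -0.55 to 0.70 on the log2 scale, and differences within them were not detectable here.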
